A study of Mus musculus with 4 samples.

Results

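Mammalian complex I, the NADH:ubiquinone oxidoreductase of the inner mitochondrial membrane, passes electrons from NADH to ubiquinone and pumps protons as it does so. Its matrix arm holds a module that oxidises NADH and a module that reduces ubiquinone, and its membrane arm holds the proton pumps. Conserved core subunits carry the cofactors and the reaction, accessory subunits surround and stabilise them, and assembly factors help to build the complex without staying in it. Mouse embryonic stem cells in the naive state use respiration beside glycolysis. The genes described here are the rows of the deposited table whose name begins with Nduf, 45 of 23922 genes. They were divided by known role into 7 core subunits, 29 accessory subunits, 7 assembly factors (the Ndufaf genes) and 2 further genes. The latter are Ndufa4, which is now counted as a subunit of cytochrome c oxidase, and its relative Ndufa4l2.

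RNA came from the mouse embryonic stem cell line E14, grown with leukemia inhibitory factor, in 4 libraries. In 2 of them the cells had received esiRNA against Pnldc1, a deadenylase of the PARN family, and in 2 they had received esiRNA against luciferase, which mouse cells lack. Both groups were transfected with the same reagent, and total RNA was sequenced after removal of ribosomal RNA and small RNA. The labels do not say that replicate libraries are separate cultures, and the p-values may then measure technical spread alone.

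The table gives each gene 1 value in each of 2 conditions, q1 and q2, so SDs cannot be given, and replicate error enters only through the authors' Cuffdiff test. All values, p and q below are those of the authors' deposited table, and the log2 ratios were computed from its values. No source used here ties q1 or q2 to an esiRNA. A difference can therefore be named by the condition with the higher value, but it gives no direction of the silencing. The authors' deposited table lists Pnldc1 itself at 18.1 in q1 and 26.8 in q2 (the authors' Cuffdiff p = 0.118, q = 0.399). Values behaved as values per kilobase of transcript, so levels of different genes are compared on that scale. Low values fell in steps that correspond to about 1310000 fragments for q1 and 1490000 for q2. All 14 markers of embryonic stem cells that were looked up were tested, and of 10 fibroblast markers only Vim was. Of the other 9, Col1a2, Col3a1, Postn, Dcn and Lum were listed at 0 in both conditions, Thy1 had 6.17 in q1 and 13.0 in q2, and Acta2, Col1a1 and Pdgfra were below 1.

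One subunit shows that a listed value can be hard to read where a gene has a near-identical copy. Ndufs5, an accessory subunit on the outer face of the membrane arm, was listed at 0 in both conditions. BC002163, a processed copy of it on chromosome 16 (42955631 to 42955949, plus strand, GRCm38), has 74.1 in q1 and 92.1 in q2 (log2 ratio 0.31, q = 0.704). The copy aligned with 319 of the 321 coding bases of Ndufs5 (stop codon included), and 2 of the aligned bases differed. The representative Ndufs5 transcript is 525 nt long, so part of it lies outside the aligned stretch. Both differences lie in the first 200 coding bases. These are shown for the gene on chromosome 4 (123712710 to 123718202, minus strand) and for the copy, from the GENCODE transcripts, with the differing bases in capitals:
Ndufs5: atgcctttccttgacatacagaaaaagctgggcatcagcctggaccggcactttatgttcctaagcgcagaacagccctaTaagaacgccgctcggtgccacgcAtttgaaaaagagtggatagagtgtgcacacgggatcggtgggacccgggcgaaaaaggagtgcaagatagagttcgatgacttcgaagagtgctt
BC002163: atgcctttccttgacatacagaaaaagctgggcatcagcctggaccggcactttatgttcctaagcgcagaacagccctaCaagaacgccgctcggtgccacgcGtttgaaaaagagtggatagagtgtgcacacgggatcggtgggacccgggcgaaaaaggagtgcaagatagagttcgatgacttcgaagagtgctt
Apart from those bases the lines are identical, so a read within them that covers neither difference fits both genes. The sources used here do not say how the authors assigned such reads, and whether reads of Ndufs5 were credited to the copy was not tested. The 0 of Ndufs5 is thus a listed value and not evidence of a silent gene.

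Other members have near-identical transcripts too. A transcript of another gene with at least 90% identity over at least 200 nt was found for 14 of the 45 members. The share among other genes was not counted. BC002163 was the only one of 19 such transcripts with a row in the table. That of Ndufb9 is Gm49356, a gene model that overlaps it on the same strand of chromosome 15, and so is shared sequence and not a separate copy. Ndufab1, the mitochondrial acyl carrier protein that sits in both arms, was listed at 0 in q1 and 3.26 in q2. It has 2 processed copies, which match it at 99.8% and 99.4%. Ndufa12, an accessory subunit of the NADH module, had 8.29 in q1 and 3.56 in q2 and has 1 copy at 99.5%. With Ndufs5 these are 3 of the 8 untested members, beside 11 of the 37 tested ones that have such a transcript, Ndufb9 among them.

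Most complex I subunits were well above the typical gene. The median of the mean of both conditions was 89.0 over the 37 tested members and 34.2 over all 5719 tested genes, and 30 of the 37 lay above the latter. Within the complex, listed levels per kilobase spanned 22.5-fold among the 33 tested subunits, and 21 of these were within 2-fold of their median of 89.5. The lowest, Ndufb4 at 19.0, has a processed copy that matches 390 nt of it at 100%. The next lowest, Ndufs3, Ndufa11, Ndufb2 and Ndufb3, have processed copies too, as do Ndufa7 and Ndufb7 among the higher ones. The part of copies in the span was not tested. The order of the members was similar in both conditions (Spearman's rho = 0.90 over the 37, a description across genes of the same libraries).

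**Figure D1:**
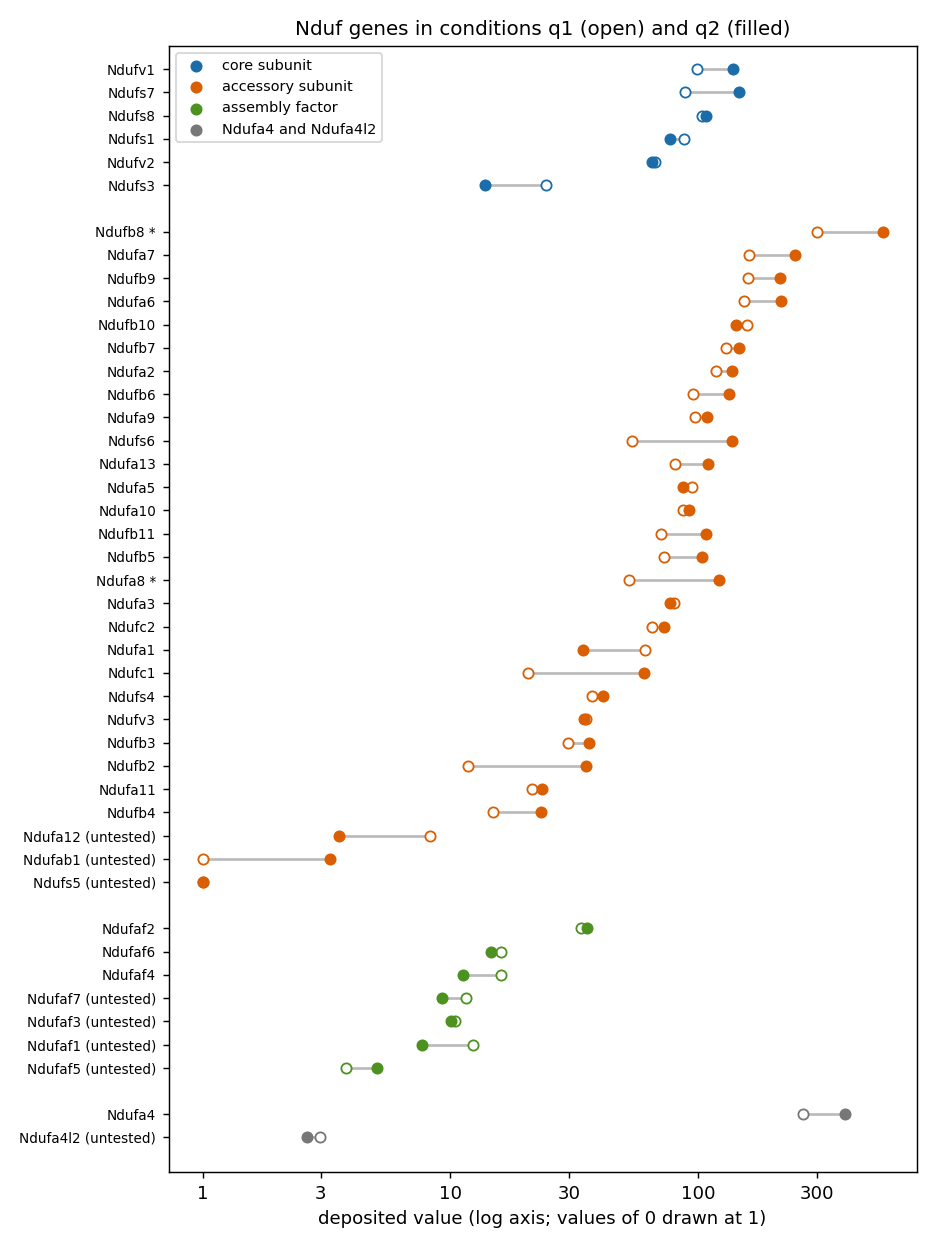
Deposited value of Nduf genes in q1 (open circle) and q2 (filled circle) on a log axis, by class and ordered by mean value; values of 0 are drawn at 1, an asterisk marks q under 0.05 and untested genes are named as such. Ndufb8 is the highest subunit in both conditions, most Ndufaf genes lie at the low end, and only Ndufb8 and Ndufa8 carry an asterisk.

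Few complex I genes differed between the conditions beyond the authors' estimate of replicate error. Of the 37 tested members, 2 passed at a q under 0.05, both higher in q2: Ndufb8 and Ndufa8, accessory subunits of the membrane arm. That is 5.41% of the tested members, near the 4.25% of all tested genes that passed, with 2.31% toward q2 and 1.94% toward q1. Before adjustment, 6 members had p under 0.05, all higher in q2 (Ndufb8, Ndufa8, Ndufs6, Ndufv1, Ndufa4 and Ndufa7). They are 16.2% of those tested, beside 18.8% of all tested genes in either direction and 10.5% toward q2. The values leaned toward q2, and the lean of the set was not tested: 27 of 37 members (73.0%) were above their q1 value in q2, beside 55.4% of all tested genes. The tested members have shorter transcripts, with a median of 763 nt beside 2583 nt. Among tested coding genes, 83.9% of those of over 600 to 800 nt were higher in q2, and 42.1% of those over 2500 nt. The median log2 ratio of q2 over q1 was 0.21, beside 0.06 over all tested genes. Centring both conditions on the upper quartiles of tested genes shifts every ratio down by 0.14: 24 of the 37 members then lie above 0, and Ndufs8, Ndufa10 and Ndufaf2 change sign.

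Ndufb8, a membrane arm subunit whose protein is often used as a marker of assembled complex I, stood at 300.6 in q1 and 553.4 in q2. This 1.84-fold difference (log2 ratio 0.88) has the statistic 3.14 in the authors' deposited table (Cuffdiff p = 5e-05, q = 0.00367). That is the smallest p in the table, and 78 genes have it. Ndufb8 is on the minus strand of chromosome 19, from 44548572 to 44555440. It has no near-identical copy, and shares exon sequence on its own strand with the gene model Gm20538. Ndufa8, a cysteine-rich subunit on the intermembrane space side of the membrane arm, is listed by the authors at 52.7 in q1 and 121.3 in q2, which is 2.30-fold higher in q2 (log2 ratio 1.20, p = 0.00185, q = 0.0464). It is on the minus strand of chromosome 2, from 36036326 to 36049406, and overlaps no exon of another gene. Its q was close to the threshold. When p was adjusted again over tested genes without replication-dependent histones, ribosomal proteins and structural RNAs it was 0.0575, and Ndufb8 alone passed.

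The 250 bases before the RefSeq start of both genes are shown 5′ to 3′ (build GRCm38.p6), because these are the members that passed. Capitals mark matches on either strand to GCGCNTGCG, the core of the site of Nrf1, a transcription factor known for genes of respiration:
Ndufb8, chr19:44555443-44555692, minus strand: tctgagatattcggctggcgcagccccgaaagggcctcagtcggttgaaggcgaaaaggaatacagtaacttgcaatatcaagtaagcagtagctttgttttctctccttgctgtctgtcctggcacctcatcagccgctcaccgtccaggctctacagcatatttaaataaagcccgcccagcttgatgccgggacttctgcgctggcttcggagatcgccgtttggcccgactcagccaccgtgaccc
Ndufa8, chr2:36049339-36049588, minus strand: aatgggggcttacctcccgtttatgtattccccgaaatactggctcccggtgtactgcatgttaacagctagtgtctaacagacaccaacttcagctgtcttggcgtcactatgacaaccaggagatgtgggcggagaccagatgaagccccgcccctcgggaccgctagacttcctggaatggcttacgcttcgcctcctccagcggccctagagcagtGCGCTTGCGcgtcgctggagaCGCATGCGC
The window of Ndufa8 holds 2 matches and that of Ndufb8 holds 0. Both matches lie within the GENCODE gene, whose start is upstream of that of RefSeq, and so in its first bases by that annotation. Over the family, 10 of 41 promoter windows of 39 members (24.4%) hold a match, beside 13.6% of 5369 windows of tested genes and 5.2% of all 32851 windows. AANATGGC, a site of Yy1, matched in 14.6%, 5.5% and 3.9% of these, and CCGGAAG, a site of the GABP factor, in 9.8%, 17.2% and 6.9%. GGGCGG, a site of Sp1, matched in 43.9%, 61.5% and 32.7%, and CCAAT, a site of NF-Y, in 31.7%, 36.8% and 33.8%. The motifs were searched on both strands and can overlap each other. A match describes letters in the window and is not a bound site.

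The core subunits showed no shared direction. All 7 were tested, and the Cuffdiff test called none, beside 4.25% of all tested genes. Before adjustment 1 had p under 0.05 (14.3%, beside 18.8% of all tested genes). Of the 7, 4 were higher in q2 (57.1%, beside 55.4% of all tested genes) and 3 were lower there. The median log2 ratio was 0.06, as over all tested genes (-0.08 after centring on the upper quartiles). In the NADH module, Ndufv1, which binds NADH and the flavin, had 99.1 in q1 and 138.3 in q2 (log2 ratio 0.48, the authors' p = 0.0171, q = 0.159). Its neighbours in that module, the iron-sulfur subunits Ndufs1 (87.9 in q1 and 77.2 in q2, log2 ratio -0.19, q = 0.609) and Ndufv2 (66.9 and 65.2, -0.04, q = 0.945), lay on the other side of 0, and exons of Ndufs1 overlap those of Eef1b2 on the other strand. The 3 core subunits of that module thus did not share a direction.

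In the module that reduces ubiquinone, Ndufs8, an iron-sulfur subunit, had 103.3 in q1 and 107.5 in q2 (log2 ratio 0.06, q = 0.931). Ndufs3, a core subunit without a cofactor, was the lowest of the core with 24.4 in q1 and 13.8 in q2 (log2 ratio -0.82, q = 0.417). Ndufs3 has a processed copy on chromosome 11 that matches 792 nt of it at 98.6%, and its exons overlap those of Kbtbd4 on the other strand, so its value is uncertain.

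Ndufs7, the subunit that holds the last iron-sulfur cluster before ubiquinone, had 88.0 in q1 and 145.2 in q2. Its log2 ratio of 0.72 was the largest of the core subunits, yet its Cuffdiff statistic from the authors was 0.42 (p = 0.535, q = 0.774). Ndufv1, at a similar level and with a smaller ratio, had a statistic of 1.70. The ratio divided by the statistic, a measure of how uncertain the authors' test held the ratio to be, was 1.70 for Ndufs7 and 0.28 for Ndufv1, and Ndufs7 had the highest of all 37 tested members. The cause was not tested.

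Most accessory subunits had a higher value in q2, and 2 of the 26 tested passed (7.69%, beside 4.25% of all tested genes). Of 29 accessory genes 3 were untested, 21 of the rest (80.8%) had a higher value in q2, and the median log2 ratio was 0.36 (0.22 after centring on the upper quartiles). Near-identical transcripts of other genes moved with this: without the accessory subunits that have one (Ndufb9 among them), the median was 0.16. Over all classes, 10 of 11 tested members with such a transcript were higher in q2 (median 0.57, none passed) and 17 of 26 without one (median 0.16, both that passed). The former are also shorter, with a median length of 623 nt beside 929 nt. The parts of near-identical transcripts and of length in these ratios were not tested. Over all tested genes, 55.4% were higher in q2. In the membrane arm, 15 of 18 tested subunits (83.3%) were higher in q2 (median 0.43), among them both that passed. In the matrix arm, 6 of 8 tested accessory subunits were higher in q2 (median 0.19) and none passed at q under 0.05 by Cuffdiff, while 2 had p under 0.05 before adjustment. Whether classes or arms differ was not tested.

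Ndufs6, a zinc-binding subunit of the NADH module, came closest to passing among the rest, with 54.0 in q1 and 136.4 in q2 (a 2.53-fold difference, log2 ratio 1.34, the authors' p = 0.00305, q = 0.0585). Its processed copy Ndufs6b matches 348 nt of it at 96.6%, and its exons overlap those of Mrpl36 on the other strand. Ndufa7, of the same module and also with processed copies, had 160.8 and 245.4 (log2 ratio 0.61, the authors' p = 0.0276, q = 0.195). Ndufa6, of the matrix arm, had 152.4 and 215.7 (0.50, q = 0.294). Ndufs4, the subunit deleted in a widely used mouse model of Leigh syndrome, had 37.2 and 41.4 (0.15, q = 0.805). The accessory subunits of the matrix arm were therefore spread over a wide range of ratios, down to Ndufa5 at -0.13 (94.5 and 86.4).

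The largest ratios belonged to thinly measured subunits of the membrane arm. Ndufb2, which has a processed copy, had 11.7 in q1 and 35.1 in q2 (a 2.99-fold difference, log2 ratio 1.58, the authors' p = 0.137, q = 0.423), and Ndufc1 had 20.5 and 60.2 (a 2.94-fold difference, log2 ratio 1.55, p = 0.0736, q = 0.318). With Ndufs6 and Ndufa8 they are the 4 tested members that differed by 2-fold or more, all higher in q2, beside 5.84% of all tested genes in either direction. Ndufa8 alone of the 4 passed. The values of Ndufb2 and Ndufc1 in q1 correspond to about 4.7 and 4.4 fragments, against 207.9 for Ndufb8. Those are estimates from 1 transcript per gene, but they place both genes at the shallow end. The ratio divided by the statistic was 1.33 for Ndufb2 and 1.07 for Ndufc1, and 0.28 for Ndufb8. In the 10 members with under 30 estimated fragments in q1 its median was 0.76, and in the other 27 it was 0.39.

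**Figure D2:**
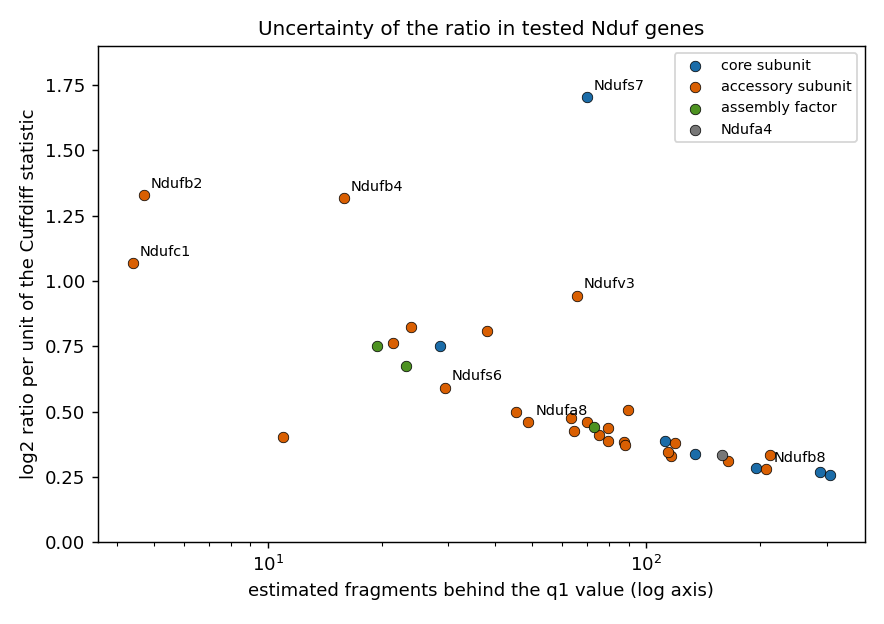
Log2 ratio divided by the Cuffdiff statistic (vertical axis, larger is less certain) against the estimated number of fragments behind the q1 value (log axis) for the 37 tested Nduf genes, coloured by class. The measure falls as fragments rise, from 1.33 for Ndufb2 to 0.28 for Ndufb8, and Ndufs7 lies apart at 1.70.

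The opposite end of the accessory subunits was Ndufa1, a small X-linked subunit of the membrane arm, with 61.1 in q1 and 34.4 in q2 (log2 ratio -0.83, the authors' p = 0.133, q = 0.417). It was the lowest ratio of the tested members, followed by Ndufs3 and the assembly factor Ndufaf4. Of the other 4 accessory subunits higher in q1, none differed by much: Ndufb10 had -0.14, Ndufa5 -0.13, Ndufa3 -0.06 and Ndufv3 -0.02. Ndufa13, also known as GRIM-19, had 80.8 and 109.1 (log2 ratio 0.43, the authors' p = 0.0582, q = 0.284). The remaining tested accessory subunits had log2 ratios from 0.08 for Ndufa10 to 0.64 for Ndufb4, and 26 of the 37 tested members lay within 1.5-fold (70.3%, beside 81.2% of all tested genes).

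The assembly factors were low, and 2 of the 3 tested had a higher value in q1. Over all tested genes, 2553 of 5719 did. Of 7 Ndufaf genes 3 were tested. None of the 3 passed the Cuffdiff test or had p under 0.05 before adjustment, beside 4.25% and 18.8% of all tested genes. Their median log2 ratio was -0.14 (-0.28 after centring on the upper quartiles). Ndufaf2, a relative of Ndufa12 that holds its place during assembly of the NADH module, was the highest with 33.7 in q1 and 35.5 in q2 (log2 ratio 0.08, q = 0.937). Ndufaf4, which binds the early ubiquinone module, had 16.0 and 11.2 (-0.51, the authors' p = 0.102, q = 0.376). Ndufaf6, needed for an early membrane intermediate, had 16.0 and 14.5 (-0.14, q = 0.908). All 3 lay well below the median of 89.5 of the tested subunits.

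The other 4 assembly factors were not tested by the authors. Ndufaf1, part of the complex that assembles the membrane arm, had 12.3 in q1 and 7.68 in q2. Ndufaf3, the partner of Ndufaf4, had 10.4 and 10.1. Ndufaf7, an arginine methyltransferase, had 11.5 and 9.24. Ndufaf5, which hydroxylates an arginine of Ndufs7, had 3.78 and 5.05 and was the lowest of the class. Of all 7, 5 had a higher value in q1, untested genes among them, and Ndufaf3 differed little. Ndufaf8, listed under the older name 1810043H04Rik, is not among the 7 and had 7.54 in q1 and 14.8 in q2.

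Ndufa4 was the second-highest of the Nduf genes with 263.9 in q1 and 390.9 in q2 (a 1.48-fold difference, log2 ratio 0.57, the authors' p = 0.0177, q = 0.162). Ndufa4l2, its relative that is known to be induced by hypoxia, had 2.97 and 2.63 and was not tested. The pair thus lay near opposite ends of the levels.

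Transcript length moved with the ratios. Among all 5256 tested protein-coding genes with a transcript in the annotation, the median log2 ratio went down with length, from 0.60 in 100 genes of up to 600 nt, through 0.46 in 143 genes of over 600 to 800 nt, 0.40 to 1000 nt, 0.25 to 1500 nt and 0.13 to 2500 nt, to -0.08 in 2835 longer genes. Complex I genes are mostly short. The 9 tested members of up to 600 nt had a median of 0.50, the 10 of over 600 to 800 nt had 0.36, the 5 of over 800 to 1000 nt had 0.61, the 5 to 1500 nt had 0.16, the 6 to 2500 nt had 0.12, and the 2 longer ones, Ndufs1 and Ndufaf4, had -0.35. The members thus followed the order of all coding genes apart from the third bin. From the shortest bin to the longest, 82.0%, 83.9%, 77.9%, 75.6%, 64.3% and 42.1% of all coding genes were higher in q2. Of the members, 7 of 9, 9 of 10, 4 of 5, 3 of 5, 4 of 6 and 0 of 2 were. The rank correlation (Spearman) of ratio and length was -0.37 over the 37 members and -0.41 over all tested coding genes, as a description across genes that share their libraries.

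The classes also differ in length. The median representative transcript was 694 nt for tested accessory subunits and 1623 nt for core subunits. Other tested coding genes within the length range of the accessory subunits, 1754 genes, had a median log2 ratio of 0.25 beside 0.36 for the subunits. For core subunits the medians were 0.17 over 2395 other genes and 0.06, and for assembly factors 0.13 over 3448 and -0.14. Only the range was matched each time, not the lengths within it. That of the accessory subunits, 315 to 2020 nt, takes in 635 coding genes of over 1000 to 1500 nt. In the first 2 length bins all coding genes had 0.60 and 0.46, beside 0.50 and 0.36 for the members. In the third they had 0.40 beside 0.61. The part of length in the ratios of the accessory subunits was not tested beyond these values. Without histone and ribosomal protein genes, which are short, the medians of all coding genes in the first 3 bins were 0.47, 0.37 and 0.37.

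**Figure D3:**
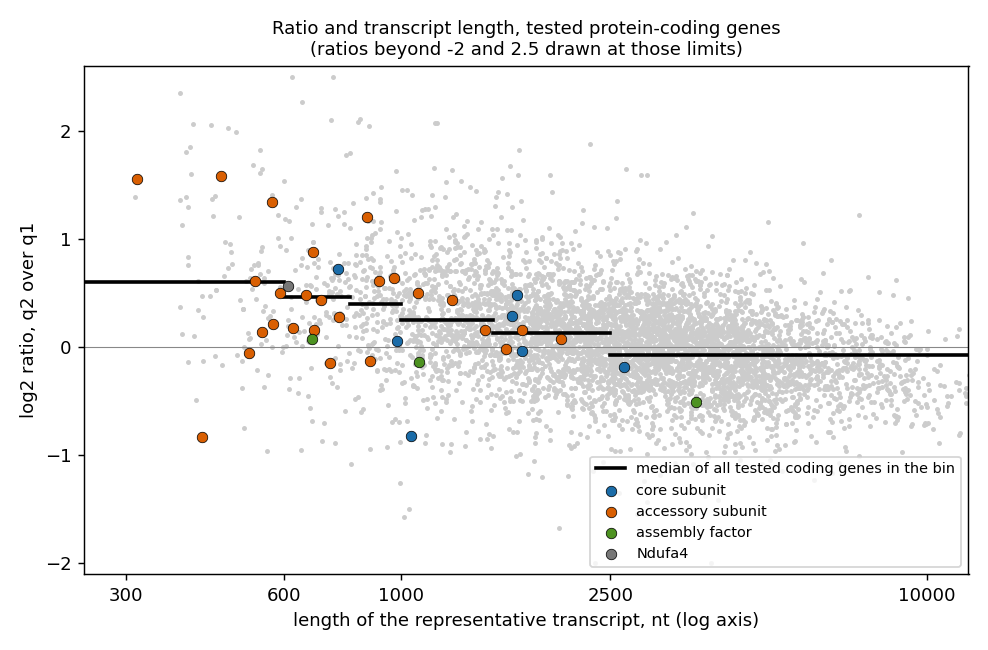
Log2 ratio of q2 over q1 against the length of the representative transcript (log axis) for tested protein-coding genes in grey and tested Nduf genes by class, with black lines for the median of all tested coding genes in each length bin. The medians go down from 0.60 in genes of up to 600 nt to -0.08 in genes over 2500 nt, and the accessory subunits lie mostly at the short end.

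Most genes of the other respiratory complexes also had a higher value in q2. All 4 tested genes of complex II (median log2 ratio 0.32), all 9 of complex III (0.33), 9 of 11 of complex IV (0.54) and 10 of 13 of complex V (0.22) did so. After centring on the upper quartiles these counts were 3, 7, 9 and 7, and the medians 0.18, 0.20, 0.40 and 0.08. Over all tested genes, 55.4% were higher in q2 before centring. Tested genes of complexes II to V had median lengths of 2065.5, 1363, 645 and 931 nt. In the length bins that hold these medians, 64.3%, 75.6%, 83.9% and 77.9% of all tested coding genes were higher in q2. The part of length in these counts was not tested. None of complex II passed by Cuffdiff, and 1 gene passed in each of the other complexes (11.1%, 9.09% and 7.69% of those tested, beside 4.25% of all tested genes). Before adjustment, p was under 0.05 for 1 gene of complex II, 3 of complex III, 7 of complex IV (63.6%, beside 18.8% of all tested genes; 6 toward q2 and 1 toward q1) and 2 of complex V. Those that passed were Uqcrq of complex III (294.8 in q1 and 627.1 in q2, log2 ratio 1.09, q = 0.00367) and Cox6b1 of complex IV (125.4 and 251.3, 1.00, q = 0.0483) as higher in q2, and Atp5g3 of complex V (480.1 and 296.0, -0.70, q = 0.0278) as higher in q1. Whether complex I differs from these was not tested.

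**Figure D4:**
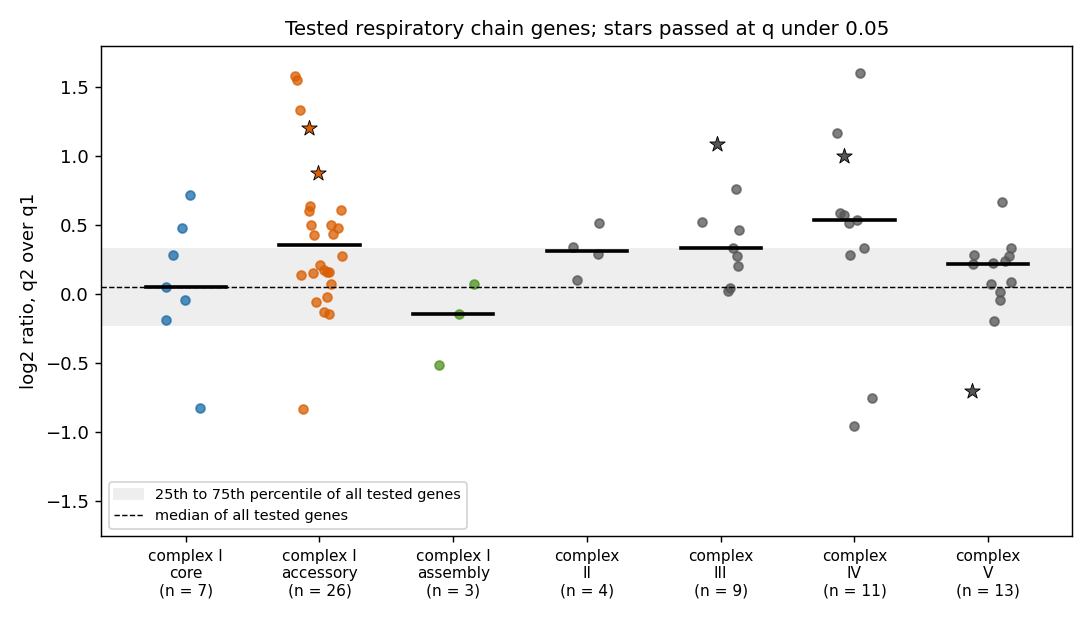
Log2 ratio of q2 over q1 of each tested gene of complexes I to V, with complex I by class; black bars are medians, stars passed the authors' test at q under 0.05, and the grey band and dashed line give the 25th to 75th percentile and the median of all tested genes. The accessory subunits have a median of 0.36, the core subunits 0.06 (-0.08 after centring on the upper quartiles) and the assembly factors -0.14.

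Helpers of complex I without the Nduf prefix were evenly divided, beside 55.4% of all tested genes higher in q2. Of 18 listed assembly and iron-sulfur cluster genes 12 were tested, 6 were higher in each condition, and the median log2 ratio was 0.10, which falls below 0 under centring on the upper quartiles. Cuffdiff called none of them, beside 4.25% of all tested genes, and 1 (8.33%, beside 18.8%) had p under 0.05 before adjustment. This was Chchd4, the import receptor for cysteine-rich proteins of the intermembrane space, with 120.1 in q1 and 159.2 in q2 (log2 ratio 0.41, the authors' p = 0.0499, q = 0.266). Tmem126b, a membrane arm assembly factor, had 28.0 and 15.8 (-0.83, q = 0.409), and its relative Tmem126a had 29.1 and 43.0 (0.56). Ecsit, Acad9 and Foxred1, further assembly factors, had -0.24, -0.08 and -0.12. Of 7 tested regulators of genes for respiration, which include the coactivator Pprc1 and Tfam, a factor of the mitochondrial genome, 5 had a higher value in q1 (median -0.32), and none passed the Cuffdiff test. Of these regulators 28.6% were higher in q2, beside 55.4% of all tested genes. Sp1 alone (14.3% of the 7, beside 18.8% of all tested genes) had an unadjusted Cuffdiff p under 0.05. Its values were 53.7 and 39.4 (-0.45, the authors' p = 0.0101, q = 0.119). Nrf1 had 46.1 and 49.2 (0.10, below 0 under that centring) and Gabpa 35.9 and 26.2 (-0.45, q = 0.312). These are long transcripts, with a median of 4987 nt among the tested ones. Mitochondrially encoded subunits, looked up by their mt-Nd names, had 0 rows in the deposited table and so were not analysed here.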

How the data were processed

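RNA of 4 libraries was sequenced, and sample titles gave the groups. TopHat, Cuffdiff, mm10 and GRCm38.p4 are the tools and builds that the submitters' processing notes name. The sources used here give no versions, options, strand setting or annotation. The authors deposited 1 Cuffdiff table with a value per gene and condition, a test statistic (a signed score), a p-value and a q-value, per the file headers. The unit of the values is not stated.

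The log2 ratio was computed again from both values. The authors' q under 0.05 was the call rule. The members, classes and lists were chosen with earlier results of these data known. Named were the core subunits (1 is counted with its class but not reported here by name), all Ndufaf genes, untested members, those with p under 0.05, and the extremes of ratio and level; a few others were chosen after their values were seen. Lengths, positions and copies came from GENCODE M21 (GRCm38), 1 transcript per gene, for 95.4% of 5719 tested genes; copies were searched with blastn 2.17.0. Promoters came from RefSeq. A fragment's worth was fitted to low values of coding genes over 800 nt after 150 nt were taken off each transcript: 77.2% in q1 and 75.4% in q2 of values of up to 3 steps lay within 0.15 of a whole step. The fit was made to these same values. The adjustment of p and the fit of a fragment's worth were tested on simulated data, and the other calculations were not.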

Additional observations from a re-analysis of the deposited data

How the results depend on the processing

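The count of 2 tested Nduf genes that passed became 1 at a q under 0.01 (Ndufb8), 1 when a 2-fold difference was also asked (Ndufa8) and 1 when p was adjusted without histones, ribosomal proteins and structural RNAs (Ndufb8), and 3 at a q under 0.10. It was 2 over genes with a value of at least 10. Centring on the upper quartiles, a shift of 0.14 on the log2 scale, moved the median log2 ratio of all tested members from 0.21 to 0.08, of accessory subunits from 0.36 to 0.22 and of assembly factors from -0.14 to -0.28, and reversed that of core subunits from 0.06 to -0.08; 24 of 37 members then lay above 0. Centring on the median of all tested genes shifted ratios by 0.06. Without members that have a near-identical transcript of another gene (Ndufb9 among them), a choice made after seeing the data, the accessory median was 0.16 over 17 genes. The other filters and the pseudocount moved medians by less than 0.1. No paired analysis was possible because each condition has a single pooled value per gene, and for the same reason no library could be left out and no count test was run. Depth limits the members of few fragments most.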

Other observations

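Ndufaf8, a partner of Ndufaf5, is listed in the table under its older name 1810043H04Rik and so is not among the 45 rows. The authors' deposited table lists it at 7.54 in q1 and 14.8 in q2 (log2 ratio 0.98, Cuffdiff p = 0.449, q = 0.717).

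Exons of 17 Nduf genes overlap exons of another gene on the other strand, and the sources used here do not say whether the authors' counting used strand. Ndufb5 overlaps Mrpl47, a mitochondrial ribosomal protein with 40.1 in q1 and 70.9 in q2 (log2 ratio 0.82, the authors' Cuffdiff p = 0.0202, q = 0.170), beside 0.50 for Ndufb5. Ndufs6 overlaps Mrpl36, which had 59.7 and 81.1 (0.44, q = 0.426), beside 1.34 for Ndufs6. Ndufs1 overlaps Eef1b2, a translation elongation factor that passed as higher in q2 (291.3 and 462.2, 0.67, q = 0.00367), beside -0.19 for Ndufs1.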
